A study of Mus musculus with 13 samples.

Results

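The 10 genes described here are imprinted genes of fetal growth: H19, Igf2, Dlk1, Meg3, Rian, Mirg, Peg3, Mest, Grb10 and Cdkn1c. The rule takes them by name, with no measured value in it, from the 23361 gene symbols of the deposited tables. All 10 are listed, and 8 had enough fragments to be tested. Dlk1 and Mirg did not.

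The RNA came from liver tumours of mice with deletions of the Hippo kinases Mst1 and Mst2. Every mouse carried Mst1-/-; Mst2Flox/Flox on a mixed background (C57BL/6; 129Sv), and Cre was given by adenovirus, so that the germline loss of Mst1 and the loss of Mst2 in infected liver cells are shared by both groups. Mice with tumours seen on ultrasound received lipid nanoparticles by vein for 9 days. In 5 libraries (siYap) the particles held siYap-LNPs, an siRNA to Yap, a co-activator of transcription that is restrained by these kinases. In 8 control libraries (siLuc) they held siLuciferase-LNPs, an siRNA to luciferase, a gene that mice lack. The labels give no age and do not say how many tumours or animals the libraries come from. Tumour-free liver and untreated tumours were not analysed here. P-values therefore measure the spread between these libraries, which may partly be technical.

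Genomic imprinting silences 1 parental copy of a gene according to the parent it came from. H19, a long non-coding RNA made from the maternal copy, and Igf2, a fetal growth factor made from the paternal copy, lie next to each other, share enhancers and are ordered by a control region where the insulator protein CTCF binds the unmethylated maternal copy. In liver both are abundant before birth and are shut down after it, and either can return in liver tumours. Dlk1, a membrane ligand related to Notch ligands, is the paternally expressed neighbour of the maternally expressed non-coding RNAs Meg3, Rian and Mirg, which carry clusters of small nucleolar RNAs and microRNAs. Peg3, a zinc-finger protein, and Mest, an enzyme of the alpha/beta hydrolase family, are made from the paternal copy. Grb10, an adaptor that dampens insulin and IGF receptors, and Cdkn1c, a cyclin-dependent kinase inhibitor also called p57, are made mainly from the maternal copy. The tables give 1 value per gene and no allele, so imprinting itself was not measured.

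Yap1 transcript checked the labels. Its 8 siLuc libraries lay between 8.10 and 11.9 FPKM and its 5 siYap libraries between 2.22 and 4.17 (log2 fold change -1.58, adjusted p = 2.36e-05). FPKM is fragments scaled to transcript length and sequencing depth. Stk4, the gene of Mst1, had means of 0.0533 FPKM in siLuc and 0.0440 in siYap. Stk3, the gene of Mst2, was at 4.97 to 6.92 FPKM in siLuc and 3.95 to 7.41 in siYap. Its transcript was thus present in every library, and which cells it came from was not tested. Totals ran from 23637021 fragments in siYap replicate 1 to 37043914 in siLuc replicate 8. The summed level of 7 hepatocyte markers was 12096 to 17543 FPKM under siLuc against 7916 to 14631 FPKM under siYap, so hepatocyte genes were present in every library. Of the 7, Serpina1a, Fgb and Cps1 were lower in siYap, Tat was higher, and Ttr, Hnf4a and Ahsg were not called. The file names carry a number shared by some libraries of 1 group (5 numbers in siLuc, 3 in siYap) and a code whose first digit (6, 7 or 8) occurs with both treatments. What they stand for is not stated in the labels.

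Of the 8 tested genes, 3 were lower in siYap tumours (H19, Igf2 and Peg3), 3 were higher (Mest, Meg3 and Rian), and Grb10 and Cdkn1c did not pass the test. Calls come from edgeR's quasi-likelihood test, with Benjamini-Hochberg adjustment over 15132 genes and a threshold of 0.05. By the same rule 14.8% of all tested genes were called lower, 16.0% higher and 30.8% either way. H19, Igf2 and Peg3 had every siYap library below every siLuc library, which held for 5.83% of all tested genes. Mest and Meg3 had every siYap library above every siLuc library, which held for 6.33%. The median log2 fold change of the 8 genes was -1.03, against -0.0026 over all tested genes.

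**Figure D1:**
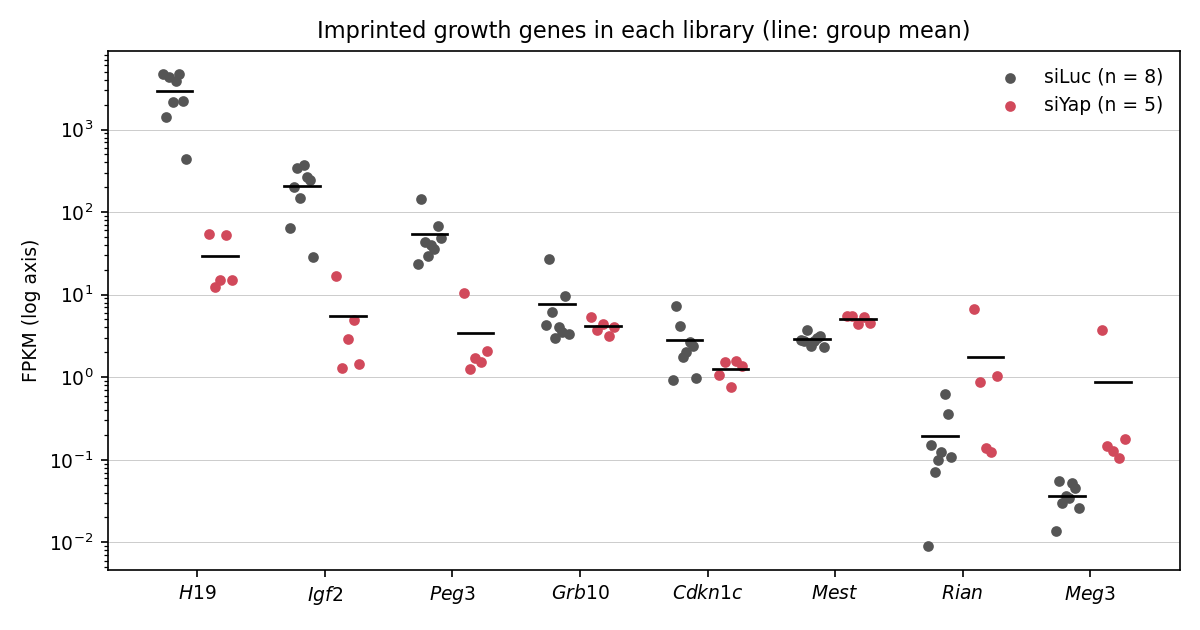
FPKM on a log axis of the 8 tested genes in each of the 8 siLuc (grey) and 5 siYap (red) libraries, with a black line at each group mean. The group means lie farthest apart for H19, followed by Igf2, Mest lies slightly higher in siYap, and 1 siYap library holds the highest Meg3 and Rian.

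H19 and Igf2 lie on chromosome 7, at 142575530 to 142578146 and 142650768 to 142666816, both on the minus strand (RefSeq, GRCm38.p6). Each hosts a microRNA. Mir675 lies in an exon of 3 of the 7 annotated H19 transcripts, and Mir483 lies outside the exons of all 9 annotated Igf2 transcripts. The 4 mature sequences from RefSeq are shown because they are the small RNA products of the pair that changed most. Capitals mark the seed, bases 2 to 8 from the 5′ end, and no seed is shared.
mmu-miR-675-5p: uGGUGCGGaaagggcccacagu
mmu-miR-675-3p: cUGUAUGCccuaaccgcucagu
mmu-miR-483-5p: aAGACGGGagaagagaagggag
mmu-miR-483-3p: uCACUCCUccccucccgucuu
Both hairpins stood at 0 fragments in all 13 libraries, and the labels' protocols name no step that keeps small RNA, so levels of these microRNAs were not measured.

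Start-site windows of 300 bases (250 before to 50 after an annotated start) were held by the RefSeq table for 8 of the 10 genes, 15 windows in all. They were searched on both strands for the letters GGAATG, which read as CATTCC from the other strand, the core of the sites bound by TEAD proteins, the DNA-binding partners of Yap. The letters occurred in 5 of the 15 windows, belonging to Igf2, Peg3 and Rian, and in 14.7% of 32851 windows of the same length genome-wide. In Igf2, 3 of 4 windows held them. These windows overlap in no base but belong to 1 gene, so they are not separate cases. The Mest windows that start at 30737800 and 30737803 held none and share nearly all their bases, so they are not separate either. The remaining Igf2 window held none, the Rian window belongs to a gene called higher, and H19 had no window. Printed are the 3 windows of Igf2 and that of Peg3, which hold the letters and belong to genes that fell. Picked by both, they cannot link the letters to the fall. All are 5′ to 3′ on the minus strand of GRCm38.p6, with the searched letters in capitals.
Igf2, chr7:142661222-142661521: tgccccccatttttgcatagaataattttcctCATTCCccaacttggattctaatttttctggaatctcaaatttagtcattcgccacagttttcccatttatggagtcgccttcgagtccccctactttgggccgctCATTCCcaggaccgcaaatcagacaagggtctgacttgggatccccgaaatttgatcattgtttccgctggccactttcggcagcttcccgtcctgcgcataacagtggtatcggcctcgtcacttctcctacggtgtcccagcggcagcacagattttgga
Igf2, chr7:142658755-142659054: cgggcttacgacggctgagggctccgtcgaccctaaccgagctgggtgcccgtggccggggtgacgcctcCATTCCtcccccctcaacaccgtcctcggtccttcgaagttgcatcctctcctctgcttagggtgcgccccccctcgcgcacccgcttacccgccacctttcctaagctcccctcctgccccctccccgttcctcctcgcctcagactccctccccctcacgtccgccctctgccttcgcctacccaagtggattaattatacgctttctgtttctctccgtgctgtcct
Igf2, chr7:142657447-142657746: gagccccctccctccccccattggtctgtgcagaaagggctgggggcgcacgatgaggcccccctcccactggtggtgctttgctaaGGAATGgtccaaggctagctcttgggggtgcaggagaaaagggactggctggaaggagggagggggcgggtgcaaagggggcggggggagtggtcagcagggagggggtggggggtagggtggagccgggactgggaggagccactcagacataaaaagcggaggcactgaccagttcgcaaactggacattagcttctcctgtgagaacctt
Peg3, chr7:6730370-6730669: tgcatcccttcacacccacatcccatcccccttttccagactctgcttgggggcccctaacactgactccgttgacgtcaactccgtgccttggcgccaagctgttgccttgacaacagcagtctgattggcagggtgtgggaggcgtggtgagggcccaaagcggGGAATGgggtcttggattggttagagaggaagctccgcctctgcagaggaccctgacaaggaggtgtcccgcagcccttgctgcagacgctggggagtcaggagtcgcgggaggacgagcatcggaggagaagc
The letters began at positions -218 and -112 from the start in the first Igf2 window, -180 in the second, -163 in the third and -84 in Peg3. The letters CTTTGAT, which read as ATCAAAG from the other strand, a core of the sites of TCF and LEF proteins, occurred in 0 of the 15 windows and in 3.73% of all windows. No binding was measured in these samples, and a match is only a match of letters.

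H19, among the most abundant transcripts of the siLuc tumours, fell in every siYap library. In siLuc it ranked 13 of all genes by mean FPKM, and in siYap 2214. The siLuc libraries held 4660, 1405, 4303, 2149, 3903, 4659, 2185 and 441 FPKM, in the order of replicates 1 to 8. The 5 siYap libraries held 54.7, 12.2, 14.8, 52.1 and 14.9 FPKM. The lowest siLuc library, replicate 8, was thus still above the highest siYap library, and the groups did not overlap. The means were 2963 ± 1625 FPKM (SD, n = 8) and 29.8 ± 21.6 FPKM (SD, n = 5), 99.6-fold lower in siYap, with a log2 fold change of -6.55 ± 0.78 (SE) and an adjusted p of 5.52e-05. H19 took 0.888% of all fragments in siLuc (0.128% to 1.51% over libraries) and 0.00946% in siYap. The siLuc libraries themselves spanned 10.6-fold.

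Igf2, the growth factor, fell in the same libraries. The siLuc libraries held 63.5, 203, 345, 148, 371, 264, 246 and 28.3 FPKM, replicates 1 to 8. The siYap libraries held 16.7, 1.29, 2.93, 4.97 and 1.44 FPKM. Replicate 8 was again the lowest siLuc library and replicate 1 the highest siYap library, and the groups did not overlap. The means were 209 ± 124 FPKM (SD, n = 8) and 5.46 ± 6.44 FPKM (SD, n = 5), 38.2-fold lower, with a log2 fold change of -5.14 ± 0.87 (SE) and an adjusted p of 0.000803. Without siYap replicate 1 the log2 fold change was -6.30 (adjusted p = 0.000180). Its rank by mean FPKM went from 346 to 7516. Igf2as, an antisense transcript overlapping Igf2 and chosen after its values were seen, had a mean of 0.443 FPKM under siLuc and of 0.0239 FPKM under siYap (adjusted p = 0.000882). Whether fragments were counted by strand is not given in the sources used here, so fragments of overlapping antisense pairs cannot be told apart.

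A two-sided exact permutation test of log2 CPM (counts scaled to library size), with 1287 arrangements of the libraries, returned p = 0.000777 for each of H19, Igf2, Peg3, Mest and Meg3, its smallest possible value. The same exact permutation test with 56 arrangements of the file-name numbers returned 0.0179 for each, again the smallest possible. In the code digits 6, 7 and 8, taken singly, H19 differed by -6.57, -6.89 and -4.87 on the log2 scale and Igf2 by -4.52, -6.12 and -4.28. The fall of both thus stood within each digit, although digit 8 holds 1 library of each treatment.

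The relation of the pair to each other was measured as fragments of H19 per fragment of Igf2 in the same library. It was 60.1, 4.77, 8.61, 10.03, 7.27, 12.2, 6.15 and 10.8 in siLuc and 2.57, 6.56, 3.50, 7.24 and 7.14 in siYap. siLuc replicate 1 stood far above all others, and the remaining libraries of the groups overlapped. On the log2 scale, with 0.5 fragments added, the ratio was 3.39 ± 1.11 (SD, n = 8) in siLuc and 2.31 ± 0.686 (SD, n = 5) in siYap, a difference of -1.08. The two-sided exact permutation test gave p = 0.0614 with 1287 arrangements, so a larger fall of H19 than of Igf2 was not shown at this threshold. The p passed 0.05 without siLuc replicate 2 (0.0227) or siLuc replicate 7 (0.0492) and with the counts of each file-name number added up (0.0179), and it rose to 0.196 without siYap replicate 1. The difference was -0.72 without siLuc replicate 1, and -0.59 (exact permutation p = 0.418) without siYap replicates 1 and 3.

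**Figure D2:**
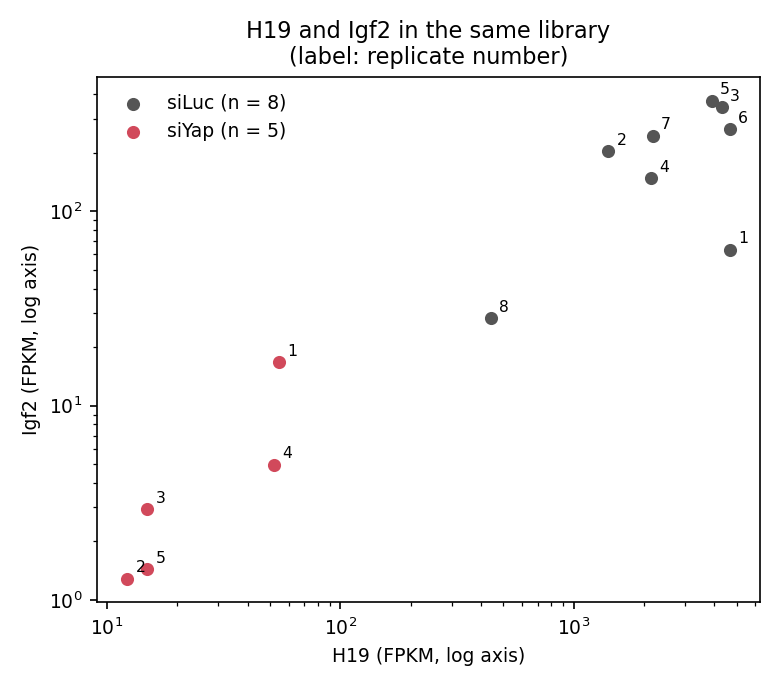
FPKM of H19 against FPKM of Igf2 in the same library, both on log axes, for 8 siLuc (grey) and 5 siYap (red) libraries, labelled by replicate number. The groups occupy separate corners, and siLuc replicate 1 lies low in Igf2 for its H19.

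Patterns were compared among 11592 tested genes that averaged 1 FPKM or more in siLuc or siYap, with Rik and Gm names left out. Among these, Igf2 was the gene whose library-by-library pattern lay nearest to H19. The measure was the mean absolute difference of log2 CPM over the 13 libraries, each gene centred on its siLuc mean. It was 0.84 between H19 and Igf2, against a median of 3.10 over the 11592 genes. The next 4 for H19 were Slc22a7, an organic anion transporter (0.94), Tff3, a trefoil peptide (1.02), Cyp2f2, a cytochrome P450 (1.10), and Slc1a1, a glutamate transporter (1.14). For Igf2 the nearest was Trpm6, a magnesium channel (0.65), followed by H19, Slco1a6, an organic anion transporter (0.84), Psca, a surface antigen (0.98), and Peg3as, a transcript antisense to Peg3 (0.99). Peg3 ranked 13 for Igf2 and 42 for H19, while Rian, in the other direction, ranked 11472 and 11510. Since the treatment difference enters this measure, it orders genes by the size and spread of their fall.

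The pair's tested protein-coding neighbours did not share its change in size. Within 500 kb, 8 protein-coding genes were tested. Of these, 2 were lower, Cd81, a tetraspanin, and Tssc4, a splicing factor, and none was higher. Over all tested genes 14.8% were lower and 16.0% higher. Tssc4 went from 4.54 to 2.49 FPKM, with no overlap between the groups (log2 fold change of -0.76, adjusted p = 0.00691). Cd81 went from 195 to 141 FPKM (adjusted p = 0.0368, log2 fold change -0.45), a call that was lost on leaving out siLuc replicate 1, 2 or 3, or siYap replicate 1 or 3 (adjusted p between 0.0555 and 0.0999). Mrpl23, a mitochondrial ribosomal protein 34783 bases from H19, was at 114 and 97.1 FPKM (adjusted p = 0.262). Lsp1, Ctsd, Dusp8, Tspan32 and Kcnq1 did not pass the test, with log2 fold changes between -0.28 and 0.21.

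**Figure D3:**
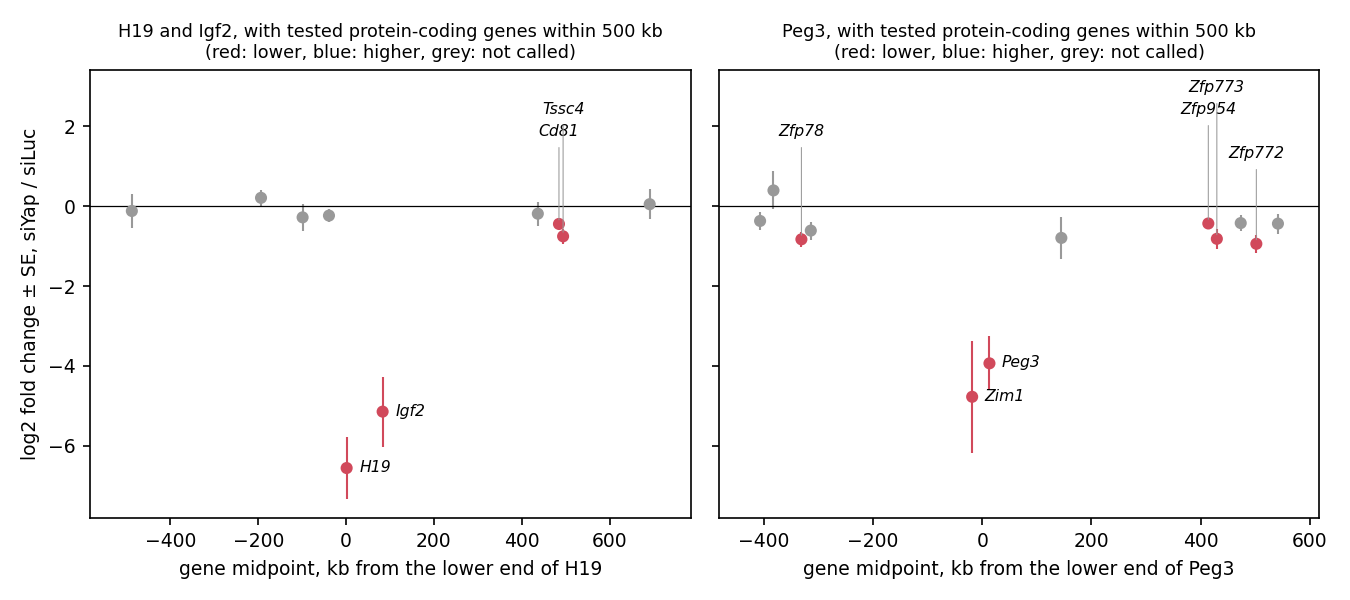
Log2 fold change with its standard error against the distance of each gene's midpoint from the lower end of H19 (left) or Peg3 (right), in kb, for tested protein-coding genes within 500 kb. H19 and Igf2 at -6.55 and -5.14 stand below their neighbours, and Peg3 stands beside Zim1 at -3.93 and -4.77.

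Peg3 fell in every siYap library. In siLuc it was 23.7, 144, 43.6, 29.8, 39.9, 36.1, 68.0 and 48.9 FPKM, replicates 1 to 8. In siYap it was 10.4, 1.27, 1.70, 1.53 and 2.09 FPKM. siLuc replicate 2 and siYap replicate 1 were each the highest of their group, and the groups did not overlap. The means were 54.2 ± 38.5 FPKM (SD, n = 8) and 3.39 ± 3.90 FPKM (SD, n = 5), with a log2 fold change of -3.93 ± 0.67 (SE) and an adjusted p of 0.000855. Without siYap replicate 1 it was -5.04, and without siLuc replicate 2 it was -3.56. Within the digits 6, 7 and 8 Peg3 differed by -3.97, -4.71 and -4.54. Peg3as lies inside Peg3 (chromosome 7, 6703892 to 6730462) on the other strand and went from 72.9 ± 50.6 to 4.08 ± 5.56 FPKM (adjusted p = 0.000925, log2 fold change -4.18). The estimated fragments of both were not whole numbers in most siLuc libraries, and fragments of the pair cannot be told apart.

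The genes around Peg3, examined after their values were seen, were lower in 5 of 11 tested protein-coding cases and higher in none, with a median log2 fold change of -0.61. Over all tested genes 14.8% were lower and 16.0% higher. Zim1, a maternally expressed zinc-finger gene 7352 bases away, went from 0.875 ± 1.35 to 0.0302 ± 0.0391 FPKM (adjusted p = 0.0195, log2 fold change -4.77 ± 1.40). Its groups overlapped, and its highest siLuc libraries were replicates 7 and 2, at 3.75 and 2.13 FPKM, which were also the 2 highest in Peg3. The call ended without siYap replicate 3 (adjusted p = 0.0537). The other 4 were the zinc-finger genes Zfp78, Zfp954, Zfp773 and Zfp772, with log2 fold changes between -0.94 and -0.43 and no overlap between groups. Usp29, a paternally expressed gene 97 bases from Peg3, was at 0.128 and 0.0740 FPKM (adjusted p = 0.269). Around H19 and Igf2, as given above, 2 of 8 were lower and none higher. Within 500 kb of Cdkn1c, 3 of 15 tested protein-coding genes were higher and 3 lower. Around Mest 1 of 6 was higher and 0 lower, and around Grb10 1 of 4 was higher and 1 lower.

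Mest went the other way, by a small and even step. It was 2.83, 2.74, 3.70, 2.42, 2.78, 3.01, 3.19 and 2.31 FPKM in siLuc and 5.51, 5.54, 4.37, 5.43 and 4.53 FPKM in siYap. The groups did not overlap, and the spread within each was narrow. The means were 2.87 ± 0.440 FPKM (SD, n = 8) and 5.08 ± 0.576 FPKM (SD, n = 5), 1.77-fold higher in siYap (log2 fold change 0.83 ± 0.15 (SE), adjusted p = 0.000847). Within the digits 6, 7 and 8 it differed by 1.05, 0.69 and 1.04. No library decided the call, and leaving each out in turn gave log2 fold changes of 0.79 to 0.89.

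At the Dlk1 locus on chromosome 12, Meg3 rose from near zero, Rian was called higher with overlapping groups, Mirg was not tested, and Dlk1 was not detectable. Dlk1 (109452485 to 109463336) had 0 fragments in all 8 siLuc libraries and in 4 siYap libraries, and 1 fragment in siYap replicate 5. A count of 0 allows up to 3 fragments in a library, so Dlk1 was not detectable at this depth in either group. Meg3 held 6, 23, 14, 17, 14, 21, 18 and 13 fragments in siLuc. It held 495, 33, 37, 28 and 31 in siYap. The groups did not overlap, and siYap replicate 1 stood far above the rest. In FPKM this was 0.0138 to 0.0547 in siLuc, 3.78 in siYap replicate 1 and 0.105 to 0.178 in the other 4 siYap libraries. FPKM rose more than the fragments did. For example, 23 fragments stood at 0.0547 FPKM in siLuc replicate 2, and 31 at 0.178 FPKM in siYap replicate 5. The log2 fold change was 3.26 ± 0.71 (SE, adjusted p = 0.00361), and without siYap replicate 1 it was 1.21 (adjusted p = 0.0175). Without siYap replicates 1 and 3 it was 1.11 (adjusted p = 0.0523).

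Rian overlapped between groups. Its siLuc libraries held 1, 22, 10, 14, 15, 75, 42 and 16 fragments, and its siYap libraries 687, 108, 15, 14 and 123. siYap replicates 1, 2 and 5 were above every siLuc library, and siYap replicates 3 and 4 lay inside the siLuc range. The log2 fold change was 3.17 ± 0.91 (SE, adjusted p = 0.0182), and the exact permutation test over libraries gave p = 0.0521. The call ended without siYap replicate 1 (log2 fold change 1.51, adjusted p = 0.165) and once the digit entered the model (adjusted p = 0.219). Within the digits 6, 7 and 8 Rian differed by 5.79, -0.48 and 3.26, and Meg3 by 3.62, 1.12 and 1.58. The difference of the treatment effect between digits 7 and 6, tested by edgeR across 15194 genes, was called for 2 genes (0.0132%), Camk2b and G6pc, and for none of the 8 described here. Meg3 (unadjusted p = 0.0237, adjusted p = 0.652) and Rian (0.00424 and 0.474) were the only 2 of the 8 with an unadjusted p under 0.05. Of all 15194 genes, 969 had such a p.

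Mirg was at most 12 fragments in siLuc (replicate 8) and 16 in siYap (replicate 1), with overlap between the groups. Rtl1, a paternally expressed, retrotransposon-derived gene whose annotated span reaches from Meg3 to Rian, had at most 2 fragments in siLuc and up to 52 in siYap, in replicate 1, and was not tested. The tables list 53 of the 57 microRNA hairpins that RefSeq places from Meg3 to Mirg, and none had more than 5 fragments. Wdr25, the only tested protein-coding gene within 500 kb, was at 0.808 and 1.005 FPKM (adjusted p = 0.201).

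siYap replicate 1 was also the library with the highest summed level of 8 markers of stellate cells and fibroblasts, at 343 FPKM. The other siYap libraries were at 85.8 to 174 FPKM and the siLuc libraries at 43.6 to 168 FPKM. Of the 8 markers, Lrat and Col1a1 were higher in siYap, and none was at 0. The summed level of 6 endothelial markers was 66.9 FPKM in that library, also the highest, against 43.8 to 64.3 in the other siYap and 34.8 to 60.6 in the siLuc libraries, and 2 of the 6 (Stab2 and Lyve1) were higher. The part of these cells in the levels of Meg3 and Rian was not tested. Summed cholangiocyte markers were 1939 to 5055 FPKM in siLuc and 161 to 1141 in siYap, with 3 of 7 lower (Spp1, Epcam and Sox9), and summed macrophage markers were 539 to 1218 and 222 to 441 FPKM, with 4 of 5 lower. They thus moved in the direction of H19, Igf2 and Peg3, and their part in those falls was not tested. In bulk RNA, fewer cells of a type and less RNA per cell cannot be told apart.

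**Figure D4:**
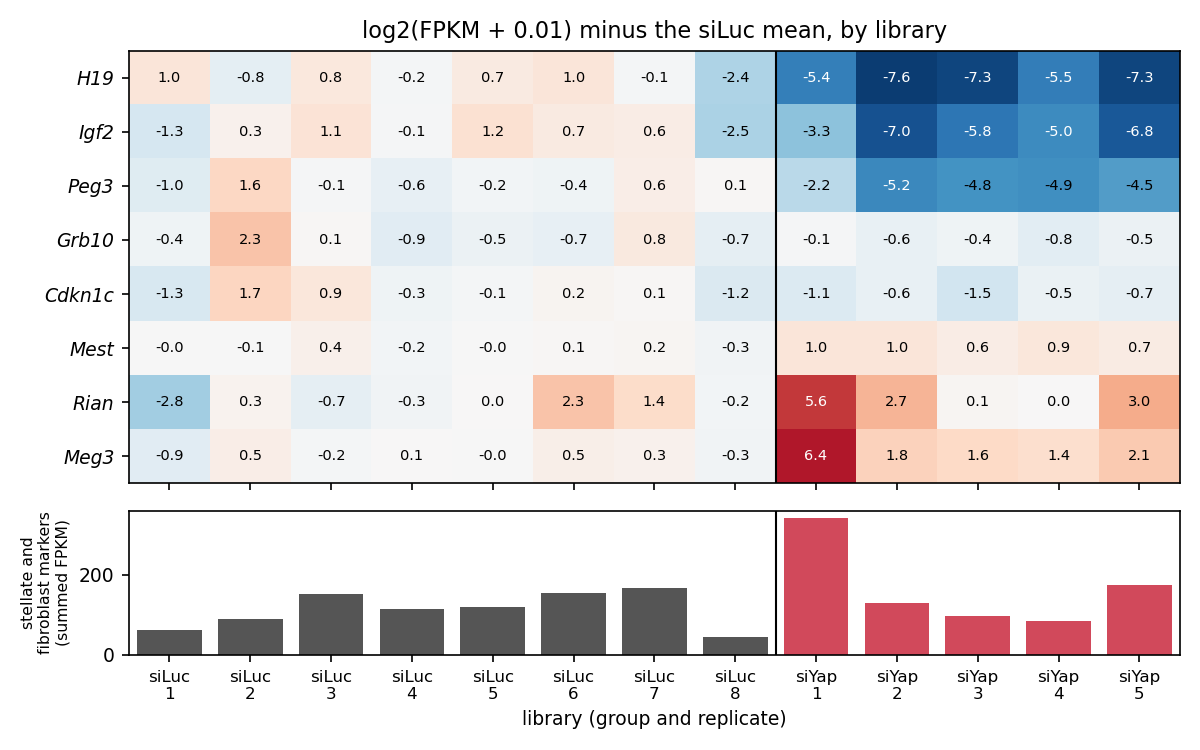
Upper panel, log2(FPKM + 0.01) of each tested gene minus its siLuc mean, for each library (blue lower, red higher). Lower panel, the summed FPKM of 8 stellate cell and fibroblast markers, with siYap replicate 1 highest at 343 FPKM and also the siYap library nearest to siLuc in Igf2 and Peg3 and farthest in Meg3 and Rian.

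The 2 maternally expressed growth inhibitors did not pass the test. Grb10 was 4.32, 27.2, 6.08, 2.96, 4.03, 3.48, 9.57 and 3.33 FPKM in siLuc and 5.33, 3.76, 4.35, 3.15 and 4.01 FPKM in siYap. The groups overlapped widely, and siLuc replicate 2 held by far the highest value. The log2 fold change was -0.87 ± 0.52 (SE, adjusted p = 0.214), and -0.23 without that library. Cdkn1c was 0.934, 7.38, 4.19, 1.76, 2.02, 2.65, 2.36 and 0.992 FPKM in siLuc and 1.06, 1.51, 0.763, 1.57 and 1.38 FPKM in siYap. siYap replicate 3 lay below every siLuc library, and the other 4 siYap libraries lay in the lower part of the siLuc range. The log2 fold change was -1.18 ± 0.47 (SE, adjusted p = 0.0685). It passed the threshold without siLuc replicate 1 (adjusted p = 0.0301) or siLuc replicate 8 (0.0394), and with DESeq2's Wald test (0.0263). siLuc replicate 2 was thus the highest library for Peg3, Grb10 and Cdkn1c together, and among the lower siLuc libraries for H19.

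By mean level per length, the order in siLuc was H19, Igf2, Peg3, Grb10, Mest and Cdkn1c, followed by Rian, Mirg and Meg3 below 1 FPKM. H19 stood apart, with its lowest library above the highest of Igf2. Igf2 and Peg3 overlapped, as did Grb10, Mest and Cdkn1c, at means of 7.62, 2.87 and 2.79 FPKM, and Rian, Mirg and Meg3. In siYap, over all 5 libraries, the order was H19, Igf2, Mest, Grb10, Peg3, Rian, Cdkn1c, Meg3 and Mirg. H19 was at 29.8 FPKM, and of the other genes only Igf2 in siYap replicate 1, at 16.7 FPKM, reached above its lowest library. Igf2, Mest, Grb10 and Peg3 had means between 3.39 and 5.46 FPKM and overlapping libraries. This order depended on siYap replicate 1. Without it, a check added after the values were seen, Mest (4.97 FPKM) and Grb10 (3.82) stood above Igf2 (2.66), and Cdkn1c (1.31) above Rian (0.542).

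Most other imprinted genes, from lists by parental copy, did not pass the test, and neither did most of all tested genes (30.8% called). For these and each list below, the shares over all tested genes were 14.8% lower and 16.0% higher. Whether the listed genes are imprinted in liver was not measured. Among 21 tested genes listed as paternally expressed, 2 were higher (Airn and Plagl1), 1 was lower (Sgce), and the median log2 fold change was 0.21. Airn, the non-coding RNA that silences Igf2r on the paternal copy, went from 3.34 ± 0.685 FPKM (SD, n = 8) to 15.7 ± 5.78 FPKM (SD, n = 5), with no overlap between groups and a log2 fold change of 2.46 ± 0.23. Plagl1, a zinc-finger regulator of other imprinted genes, was at 0.0896 and 0.339 FPKM (adjusted p = 0.0305), a call that ended without siLuc replicate 3 (0.0536) or siYap replicate 1 (0.192). Sgce, the epsilon-sarcoglycan, went from 14.4 ± 10.4 to 2.85 ± 1.66 FPKM (adjusted p = 0.0236), a call that ended without siYap replicate 1 (0.0504), 2 (0.0532) or 3 (0.0639). Inpp5f, the fourth gene taken by the smallest p, was not called.

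Among 22 tested genes listed as maternally expressed, 6 were higher (Igf2r, Slc22a3, Asb4, Trappc9, Pon2 and Pon3). In the same list 3 were lower (Phlda2, Zim1 and Cd81), and the median was 0.07. Phlda2, which restrains placental growth and lies within 500 kb of Cdkn1c, went from 1.10 ± 0.974 FPKM (SD, n = 8) to 0.0326 ± 0.0497 FPKM (SD, n = 5). Its groups did not overlap (0.220 to 3.38 against 0 to 0.112 FPKM), and its log2 fold change was -4.67 ± 0.81 (adjusted p = 0.000741). Pon2 and Pon3, paraoxonases, rose from 22.0 to 38.6 and from 70.1 to 113 FPKM, both with overlapping groups. Pon3 was at 67.6 and 73.8 FPKM in siYap replicates 1 and 3, inside the siLuc range of 59.3 to 78.9 FPKM. Its call ended with the replicate number as a block (adjusted p = 0.0670). Asb4, a subunit of a ubiquitin ligase, rose from 0.255 to 0.925 FPKM (adjusted p = 0.00540). The call of Slc22a3, a cation transporter (adjusted p = 0.0376), ended without siLuc replicate 3, 5, 6 or 7 or siYap replicate 3, 4 or 5, at up to 0.102.

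**Figure D5:**
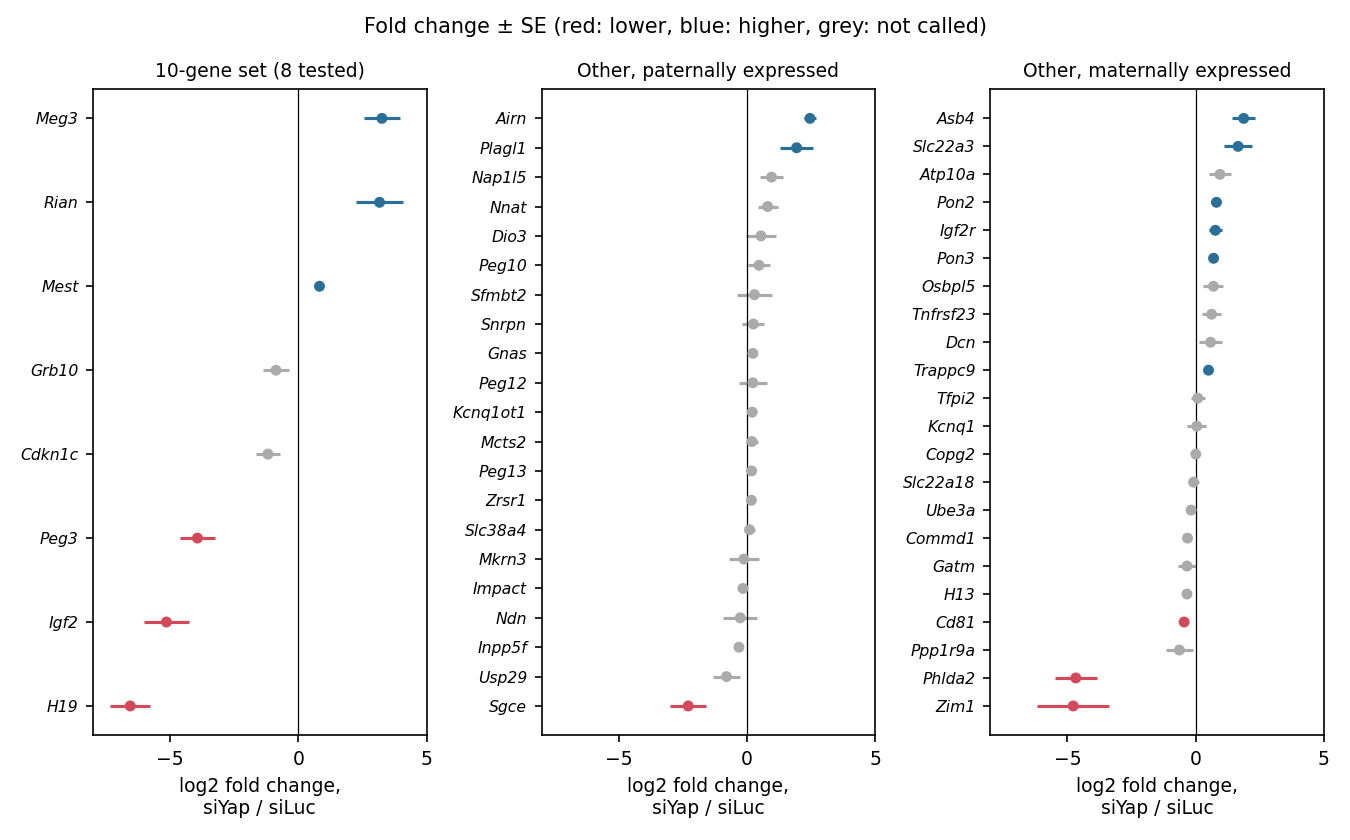
Log2 fold change (siYap over siLuc) with its standard error for the 8 tested genes of the set and for other genes listed as paternally or maternally expressed. Most other imprinted genes sit near 0 and were not called (grey), where 30.8% of all tested genes were called either way. Phlda2, Zim1 and Sgce lie to the left and Airn, Plagl1 and Asb4 to the right.

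In the IGF axis, where Igf2 is the ligand, 4 of 18 tested genes were higher and 4 were lower, with a median log2 fold change of -0.33. The higher genes included the clearance receptor and the signal adaptors. Igf2r, the receptor that removes IGF2 and was chosen after its values were seen, went from 23.4 ± 7.88 to 39.3 ± 15.7 FPKM (adjusted p = 0.0262), a call that ended without siYap replicate 2 (0.0922) or 5 (0.0506). Airn overlaps Igf2r on the other strand, so the counts of this pair share the limit given for Igf2as. Irs1 and Irs2, the docking proteins of insulin and IGF receptors, rose from 5.08 ± 0.484 to 9.83 ± 3.11 and from 1.91 ± 0.504 to 4.92 ± 2.06 FPKM (adjusted p = 0.000285 and 0.000486), without overlap. The binding protein Igfbp4 was also higher, at 164 and 262 FPKM.

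The lower genes were 2 binding proteins and 2 RNA-binding proteins of the Igf2 messenger. Igfbp6, which prefers IGF2 over IGF1, went from 11.9 ± 10.8 to 0.781 ± 0.416 FPKM without overlap (adjusted p = 0.00110, log2 fold change -3.92 ± 0.70), and Igfbp7 from 311 to 169 FPKM (adjusted p = 0.0159). Igf2bp3 went from 4.94 ± 1.80 to 1.15 ± 0.257 FPKM without overlap. Igf2bp1 was called lower with overlapping groups (0.204 and 0.00216 FPKM, adjusted p = 0.0147). siLuc replicates 2 and 8 held 337 and 151 fragments of it, the other 6 siLuc libraries 0 to 42, and the siYap libraries at most 1.

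Among 18 tested regulators of imprinting or of H19, 5 were higher and 3 lower, with a median of 0.16. Ctcf rose from 10.2 ± 0.996 to 13.2 ± 1.22 FPKM without overlap (log2 fold change 0.36, adjusted p = 0.0150). Its call ended with the replicate number as a block (0.117) and without siYap replicates 1 and 3 (0.0838). Zhx2, a repressor of H19 and Afp in the liver after birth, went from 1.67 ± 0.160 to 3.27 ± 2.21 FPKM (adjusted p = 0.0175), a call that ended without siYap replicate 3 (0.0897). Zfp568, a zinc-finger repressor of a placental Igf2 transcript, fell from 12.8 ± 3.08 to 7.51 ± 1.13 FPKM (adjusted p = 0.00422). Dnmt3a, a DNA methyltransferase, went from 4.03 to 6.32 FPKM (adjusted p = 0.0130), with siLuc replicate 2 (5.15 FPKM) above siYap replicate 5 (4.91 FPKM). The Dnmt3a call ended with the same block (0.0870) and without siYap replicates 1 and 3 (0.122). Zfp57, which maintains methylation at imprinting control regions and was chosen after its values were seen, went from 4.64 ± 2.89 to 1.13 ± 0.181 FPKM (adjusted p = 0.0175), with siLuc replicate 8 at 0.244 FPKM, below every siYap library. Its call ended with the digit in the model (0.0553), with the counts of each file-name number added up (0.104), without siYap replicates 1 and 3 (0.0671) and in limma on log2(FPKM + 0.1) (0.0827). Plagl1, given above, Zbtb20 and Uhrf1 were the remaining calls. Zbtb20 lost its call without siYap replicate 3 (0.0672), and Uhrf1, which maintains DNA methylation, without siLuc replicate 2, 6 or 8 or siYap replicate 2, 3, 4 or 5 (0.0617 to 0.0921).

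Of 5 tested fetal liver genes chosen because they are shut down after birth as H19 is, 4 were lower, against 14.8% of all tested genes. The median log2 fold change of the 5 was -2.13. The list was chosen with earlier results of these data known, so its count is no independent support. The 4 were Afp, the fetal serum protein, Gpc3, a glypican, and Igf2bp1 and Igf2bp3, already counted in the IGF axis. Gpc3 went from 173 ± 60.5 to 59.3 ± 18.2 FPKM (adjusted p = 0.000852). Afp varied widely within siLuc, at 962 and 851 FPKM in replicates 7 and 2 and 10.1 to 76.8 FPKM in the other 6, and at 5.09 to 24.7 FPKM in siYap. Its call (adjusted p = 0.0220) ended without siYap replicate 1 (0.0546) or 3 (0.0591). The siLuc libraries highest in Afp were those highest in Peg3, Zim1 and Grb10, and not those highest in H19. Among 8 tested brakes on growth, 1 was lower, Phlda3, an inhibitor of Akt signalling, from 5.23 ± 2.20 to 1.10 ± 0.338 FPKM (adjusted p = 0.000189), and 7 were not called.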

How the data were processed

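Total RNA of 13 liver tumour libraries, 8 siLuc and 5 siYap, was sequenced on a HiSeq2500 after library preparation with the ScriptSeq Complete Gold kit, per the labels' protocols. Trimmomatic 0.30, TopHat2 2.0.8, Cufflinks and Cuffdiff 2.1.1 and the build mm10 were used, per the submitters' processing notes. The gene annotation, the use of strand and the treatment of reads with several matches were not given in the sources used here. The authors deposited estimated counts (raw fragments per gene, 97.6% to 98.0% of them within 1e-06 of a whole number) and FPKM, per the file headers. The replicate indices in the siYap tables have gaps, so the deposited FPKM may be scaled with libraries not analysed here. 3 genes marked as too deep to estimate were left out, and no gene of the set carried a mark.

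Estimated counts were rounded and tested with edgeR 4.0.16 in R 4.3.3 (quasi-likelihood F test, robust, TMM, default filter by group), all 13 libraries, treatment as the only term, with Benjamini-Hochberg adjustment and a threshold of 0.05. Where no other test is named, adjusted p-values are from this one. Levels are deposited FPKM as mean ± SD, and folds without a log are ratios of mean FPKM. Standard errors are the log2 fold change over the root of F. Exact permutation tests were two-sided. Alternatives were other scalings (DESeq2 1.42.0 size factors, upper quartile), dropping the filter, keeping genes with a mean count of 50 or more, DESeq2's Wald test, limma 3.58.1 on log2(FPKM + 1) or log2(FPKM + 0.1), a block for replicate number, a term for the code digit, counts summed per file-name number, libraries left out, and an adjusted p under 0.01. The fit was checked on simulated counts with known fold changes. All pairs of libraries within groups differed by more than sampling noise (chi-square per degree of freedom at least 33.3).

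The 10 genes and the lists were chosen with earlier results of these data known. Named beside the 10 genes were up to 4 genes of each of 6 lists with the smallest p, protein-coding neighbours within 500 kb of H19 and Igf2 and of Dlk1 to Mirg, and the 5 nearest genes to H19 and to Igf2. Rik and Gm names were skipped. Other genes named were chosen after their values were seen. Intervals from a count of 0 cover counting error only.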

Additional observations from a re-analysis of the deposited data

Results flagged for a closer look

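In groups of 4 to 10 libraries, a value was marked when its gap to the nearest library, as a share of the group's range, passed Dixon's limit. 18 groups were looked at and 7 were marked. Chance marks about 1 in 20 among independent groups of normal values. These groups share libraries, and all marks are high values of unlogged FPKM or of a ratio, so that rate cannot be applied here. siYap replicate 1 was marked in 4 genes, at 16.7 FPKM of Igf2, 10.4 FPKM of Peg3, 3.78 FPKM of Meg3 and 6.62 FPKM of Rian, each the highest of its group. siLuc replicate 2 was marked in 2 genes, at 144 FPKM of Peg3 and 27.2 FPKM of Grb10, also each the highest. siLuc replicate 1 was marked for its 60.1 fragments of H19 per fragment of Igf2. The values without these libraries stand beside each result above where they differ.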

How the results depend on the processing

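H19, Igf2, Peg3 and Mest kept their direction and call under every alternative that tests single genes, and leaving out 1 library at a time gave log2 fold changes of -7.04 to -6.35 for H19, -6.30 to -4.89 for Igf2, -5.04 to -3.56 for Peg3 and 0.79 to 0.89 for Mest. Over all genes, 4668 were called, 3325 to 4633 with 1 library left out, 2984 without siYap replicates 1 and 3, and 2362 at an adjusted p under 0.01. The replicate numbers did not pair the libraries (correlations of deviations between -0.12 and 0.13), and with the replicate number as a block 2325 genes were called. Of the 3 genes of the set called higher, 1 was called with the block and without siYap replicates 1 and 3, and 2 to 3 were with 1 library left out. In limma on log2(FPKM + 1) and log2(FPKM + 0.1) the count was also 1, since Meg3 and Rian fell below the filter of 1 FPKM in 5 libraries and were not tested there. DESeq2's Wald test called 2 of the 3 genes higher, and gave Meg3 no adjusted p. With the block, Meg3 (adjusted p = 0.142) and Rian (0.141) lost their calls. With 1 library left out, 3 to 4 genes of the set were called lower, the fourth being Cdkn1c without siLuc replicate 1 or 8. The log2 ratio of H19 to Igf2 differed by -1.24 to -0.72 with 1 library left out, by -1.13 (p = 0.0396) in FPKM + 0.1 and by -1.10 (p = 0.0179) in counts per file-name number, both by exact permutation.

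Signs turned within a digit of the file code for Rian (digit 7, -0.48), Grb10 (digit 8, 0.29) and Cdkn1c (digit 8, 0.49). Uncalled neighbours also turned. Kcnq1 was at 0.05, at -0.035 with the digit as a term, at -0.43 without siYap replicates 1 and 3, and at -0.22 to 0.28 with 1 library left out, and Dusp8 at -0.46 to 0.11. The causes were not tested. The ratio of Meg3 to Dlk1 was not run, since Dlk1 had at most 1 fragment. Depth limits Dlk1, Mirg, Meg3 and Rian, which had few fragments in siLuc.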
